A study of Mus musculus with 4 samples.

Results

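Contactins and the L1 family are immunoglobulin-superfamily adhesion proteins of neurons, and their genes were examined in a map of TOP2B cleavage complexes. The group comprised 9 mouse genes, the 6 contactin genes Cntn1 to Cntn6 and the 3 L1-family genes Chl1, Nrcam and Nfasc. A peak was assigned to a gene when its summit lay in the gene's RefSeq span on build GRCm38 or within 10 kb of it. This gave 77 of the 35539 entries of the peak list. One of them, inside Chl1, had a control level far above the others and was kept apart, which left 76 summits. The genes were chosen by family, with earlier results of these data known.

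The map was made from wild-type cortical neurons of embryonic day 16 Swiss-Webster mice, grown in dissociated culture and given 50 µM etoposide for 30 min before collection. Chromatin immunoprecipitation (ChIP) against TOP2B without crosslinking gave 2 libraries, input DNA gave another 2, and each of the 4 is labelled as treated with the drug. Whether they came from separate cultures is not stated in the labels. The values are a single list pooled over libraries, so no value has a replicate error, the depth of each library is unknown, and the labelled cell type could not be checked against RNA markers. No untreated group is in the list, so nothing here compares drug with no drug. Intervals given below cover counting error only. Each peak carries the authors' own fold, the ChIP fragments stacked at its summit over the level expected from control with 1 added to both, and a q, the adjusted p as the peak caller gave it. Fold and p together gave back the fragment number and control level of every summit.

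TOP2B passes one DNA duplex through a transient double-strand break in another, and during the reaction it is covalently joined to the cut ends. Etoposide slows religation, so that these complexes persist and can be precipitated with the DNA they hold. Contactins are attached to the membrane by a lipid anchor and signal through partners such as contactin-associated proteins and receptor tyrosine phosphatases. L1-family proteins cross the membrane and bind ankyrins, which hold them at the axon initial segment and nodes of Ranvier. Both families act in axon growth, in fasciculation and in the assembly of the axoglial junctions.

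RefSeq lists 14 promoter windows for the 9 genes, each taken here as the 250 bases before a listed transcription start, and no peak assigned to these genes overlapped any of them. The distance from a listed start to the nearest summit of its gene ranged from 718 bp to 76245 bp, with a median of 22475.5 bp. For Cntn3, Cntn4 and Nfasc every listed start lies far inside the gene span, so no window represents the 5′ end of those genes. The windows with the nearest summits are printed because they are where a summit of the list came closest to a start of these genes. None of these nearest summits had a q of 0.05 or less. The q was 0.177 at Cntn1, Cntn2 and Chl1, with 14 fragments each, and 0.272 at Nfasc, with 13 fragments. Capitals mark a match to one of the motifs searched, and the Chl1 and Cntn2 windows had no match. Sequences are from RefSeq on GRCm38.p6, 5′ to 3′ on the strand of the gene. They lie at chr15:92127878-92128127 (Cntn1, internal start, plus strand), chr1:132542941-132543190 (Cntn2, minus strand), chr6:103510626-103510875 (Chl1, plus strand) and chr1:132707327-132707576 (Nfasc, internal start, minus strand).
Cntn1: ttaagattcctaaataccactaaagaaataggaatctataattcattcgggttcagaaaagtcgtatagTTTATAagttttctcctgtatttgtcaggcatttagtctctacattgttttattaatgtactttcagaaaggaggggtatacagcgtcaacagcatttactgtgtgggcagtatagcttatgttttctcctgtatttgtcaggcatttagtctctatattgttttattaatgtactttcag
Cntn2: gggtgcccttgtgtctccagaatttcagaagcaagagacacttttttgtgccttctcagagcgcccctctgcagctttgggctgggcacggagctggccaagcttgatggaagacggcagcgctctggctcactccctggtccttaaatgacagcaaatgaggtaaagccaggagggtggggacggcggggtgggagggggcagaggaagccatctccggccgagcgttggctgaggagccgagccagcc
Chl1: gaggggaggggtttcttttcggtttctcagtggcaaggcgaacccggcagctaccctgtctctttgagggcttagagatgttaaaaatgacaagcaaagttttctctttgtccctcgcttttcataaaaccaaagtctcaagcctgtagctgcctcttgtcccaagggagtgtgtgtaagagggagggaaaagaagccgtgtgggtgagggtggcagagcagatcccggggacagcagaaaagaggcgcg
Nfasc: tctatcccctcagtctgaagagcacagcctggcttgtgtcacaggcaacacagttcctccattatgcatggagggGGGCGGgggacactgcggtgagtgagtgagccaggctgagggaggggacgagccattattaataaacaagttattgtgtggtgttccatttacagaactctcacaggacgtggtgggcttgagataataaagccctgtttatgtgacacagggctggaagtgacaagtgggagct

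The internal start of Cntn1 had its nearest summit 718 bp upstream, in a peak that ended at 92127677, before the printed window begins at 92127878. The capitals in this window are a TATA box (TATAAA) on the opposite strand, and its GC content was 32.8%. For Cntn2 the nearest summit lay 1114 bp downstream of the listed start, and for Chl1 1599 bp downstream. The Nfasc start is also internal, and its nearest summit lay 2616 bp upstream of it, inside the gene, 31.9 kb from the 5′ end. The window of this start held a GC box (GGGCGG) on the gene's strand. Both strands were searched for each motif, and no match overlapped another. Over the 14 windows of the 9 genes, the AP-1 pattern TGANTCA, with any central base, was matched in 1 window, by TGATTCA at Cntn4. A TATA box was present in 1 window and a GC box in 3. The cyclic AMP response element TGACGTCA and the CTCF core motif were found in 0 of the 14 windows. Among the 32851 windows of the same length listed for the genome, the AP-1 pattern was matched in 6.75%. The TATA box was present in 12.4% of them and the GC box in 32.7%. The response element was present in 1.55% of them and the CTCF core in 1.02%.

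Of the 76 summits, 73 were inside a gene and 3 in a 10 kb flank. None of the 9 genes had a summit within 1 kb of either end of its span, where 8.3% of 21631 protein-coding genes had one, a share that would give less than 1 gene among 9. Within 5 kb of an end, 4 of the 9 genes had a summit, against 29.4% of protein-coding genes. These were Cntn2, Chl1 and Nfasc near the 5′ end, Nfasc also beyond its 3′ end, and Cntn3 near the 3′ end. The q of the summits within 5 kb of these ends ran from 0.177 to 0.405, so none had a q of 0.05 or less. Counted along the direction of transcription, the 73 summits inside the genes fell into 3 equal stretches of gene length as 28 nearest the 5′ end, 23 in the middle and 22 nearest the 3′ end.

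Every one of the 9 genes had at least 1 summit, and so had 53.4% of all protein-coding genes. Of the 9, 8 span 100 kb or more, and among protein-coding genes of that length the share was 90.4%. The 9 windows held 1.79 summits per 100 kb (95% Poisson interval 1.41 to 2.24). The median among 2313 autosomal protein-coding genes of 100 kb or more was 1.45, with quartiles of 0.818 and 2.22. Pooled in the same way as the 9 windows, the windows of all autosomal protein-coding genes held 1.82 per 100 kb, which lies within the interval of the 9. That pool takes genes of any length and counts summits in overlapping windows more than once. In the fit below, shorter windows have the higher density, so the 1.82 is not matched to the 9 genes for length.

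**Figure D1:**
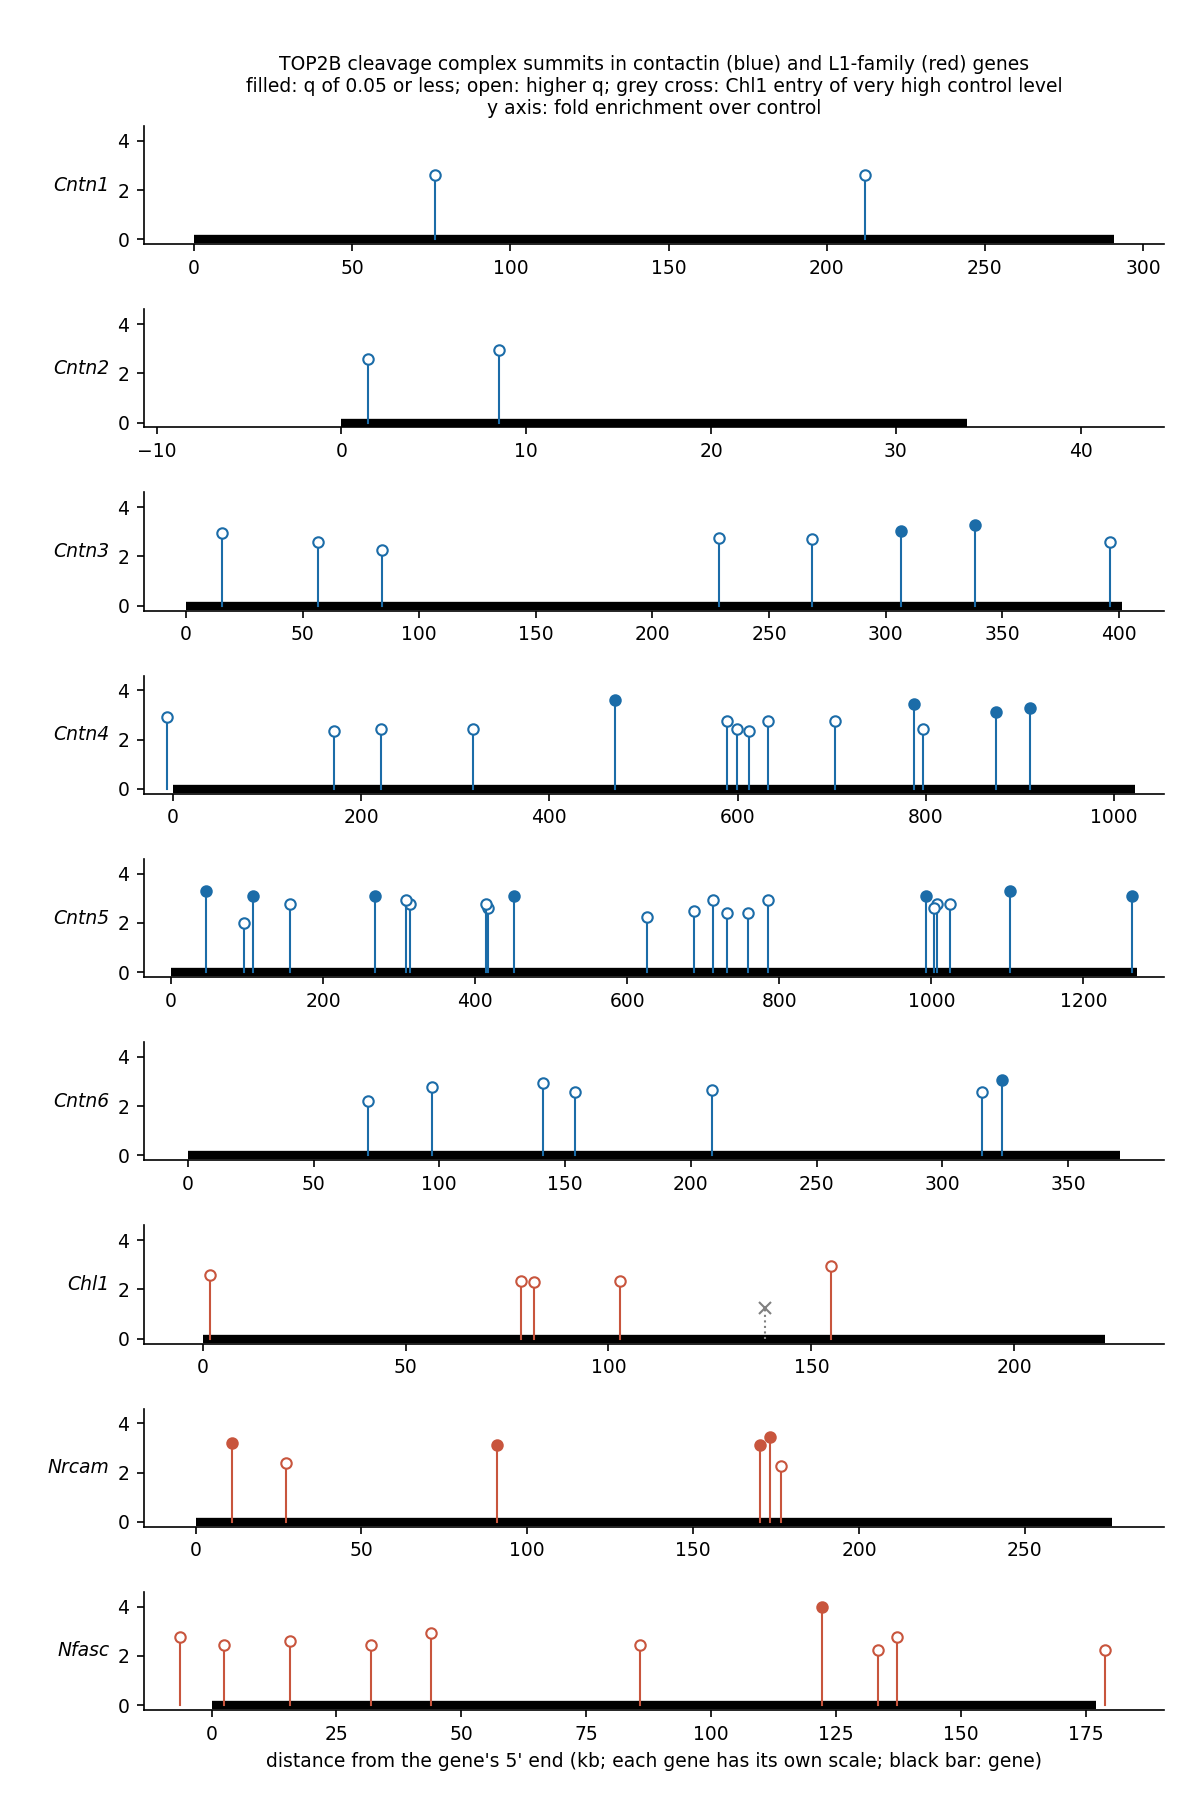
Each row is a gene drawn from its 5′ end to its 3′ end, with distance in kb on the x axis on a separate scale per gene and fold over control on the y axis. Filled circles are the 19 summits with a q of 0.05 or less, open circles are the other summits, and the grey cross is the Chl1 entry kept apart.

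Cntn5 and Cntn4 held 36 of the 76 summits. Cntn5 encodes a contactin of the auditory pathway and other sensory circuits and spans 1270.6 kb of chromosome 9, from 9634223 to 10904775 on the minus strand. It had 22 summits, the most of the group, with folds over control of 2.01 to 3.29 and a median of 2.77. At its summits 12 to 20 ChIP fragments were stacked, and 19 of the 22 had the control level of 4.78 that is the most common in the list. That level was also the lowest among entries on the chromosomes, and at it the fold follows from the fragment number alone. The highest fold, 3.29, was shared by 2 summits, one at 10859148, 45.6 kb from the 5′ end, and one at 9800888, 1103.9 kb from it. A summit of 20 fragments lay near the 3′ end, at 9641392, over a control level of 5.82, and its fold was 3.08. Cntn5 also held 3 pairs of summits within 5 kb of each other, the closest 3056 bp apart, at 10487225 and 10490281. Its widest stretch without a summit was 207.6 kb.

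Cntn4, whose product binds the amyloid precursor protein in axon targeting, spans 1022.5 kb of chromosome 6 from 105677632 to 106700141 on the plus strand. It had 14 summits, of which 1 lay 5920 bp upstream of the gene and 13 inside it. The highest, at 106147868, had a fold of 3.63 with 20 fragments and a q of 0.00437, and it lay 470.2 kb into the gene. The summit at 106464984, 787.4 kb into the gene, had a fold of 3.46 with 19 fragments. From the flank summit to the first one inside the gene, 177.1 kb held none. No 2 summits of Cntn4 lay within 5 kb of each other, and the closest pair was 9695 bp apart.

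Cntn3 and Cntn6 were similar in length and in summit number. Cntn6, a contactin that acts as a Notch ligand and in cerebellar and corticospinal development, spans 370.7 kb of chromosome 6 from 104492662 to 104863406 on the plus strand. It had 7 summits, with folds of 2.20 to 3.08 and the highest at 104816210, 323.5 kb into the gene. Cntn3, a brain-expressed contactin, spans 401.3 kb of chromosome 6 from 102163304 to 102564614 on the minus strand and had 8 summits. Their folds ran from 2.25 to 3.29, and the highest was at 102226321, 338.3 kb from the 5′ end. The start listed in the promoter table for Cntn3 lies inside this span, so the summits at 102480692, 102507849 and 102549169 were upstream of it. The Cntn3 summits at 102296167 and 102336021 also lay in the noncoding gene 4930587E11Rik.

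Cntn1 and Cntn2 had the fewest summits, 2 each, and neither gene had one with a q of 0.05 or less. Cntn1, the contactin of the paranodal axoglial junction, spans 290.8 kb of chromosome 15 from 92051152 to 92341967 on the plus strand. Its summits at 92127410 and 92263390 both had a fold of 2.59 with 14 fragments. At 0.643 summits per 100 kb (0.0779 to 2.32), Cntn1 was the sparsest of the 9, and 15.1% of autosomal protein-coding genes of 100 kb or more were sparser still. Cntn2, a contactin of the juxtaparanode that clusters potassium channels, is the one short gene here, 33.8 kb on chromosome 1 from 132509425 to 132543251, on the minus strand. One summit, at 132541826, had a fold of 2.59 and lay 1425 bp from the 5′ end. The other, at 132534706, had a fold of 2.94 and lay 8545 bp from it. The 2 summits gave 3.72 per 100 kb, with an interval of 0.45 to 13.4 that spans the values of the other 8 genes.

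Nfasc had the densest summits of the group and the highest single one. Neurofascin, its product, organises the axon initial segment, nodes and paranodes, and the gene spans 177.2 kb of chromosome 1 from 132564690 to 132741848 on the minus strand. It had 10 summits, or 5.07 per 100 kb (2.43 to 9.33), and 98.8% of autosomal protein-coding genes of 100 kb or more were less dense. The summit at 132619647, 122.2 kb from the 5′ end, had 22 fragments over a control level of 4.78, a fold of 3.98 and a q of 0.000497. The peak was 344 bp wide. The other 9 Nfasc summits were low, with folds of 2.23 to 2.94 and no q of 0.05 or less. One of them lay 6248 bp upstream of the gene, and another lay 1710 bp beyond its 3′ end, inside the noncoding gene Gm51646.

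Nrcam showed the reverse arrangement, with fewer summits of which most passed the stricter limit. NrCAM, its product, gathers sodium channels at nodes together with neurofascin, and the gene spans 276.4 kb of chromosome 12 from 44328786 to 44605194 on the plus strand. It had 6 summits, and 4 of them had a q of 0.05 or less. The highest fold was 3.46, with 19 fragments, at 44502051. The 3 summits at 44498817, 44502051 and 44505173 followed each other at 3234 bp and 3122 bp, and their folds were 3.11, 3.46 and 2.28. The last of them was 100021 bp short of the 3′ end. The median fold of Nrcam was 3.11, the highest of the 9, and the median of Nfasc was 2.51.

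Chl1, the close homologue of L1 that guides cortical neuron migration and thalamocortical axons, spans 222.5 kb of chromosome 6 from 103510584 to 103733038 on the plus strand. It had 5 summits beside the entry kept apart, with folds of 2.28 to 2.94 and none with a q of 0.05 or less. Its median fold of 2.36 was the lowest of the 9 genes. Only 1 of its 5 summits was at the common control level of 4.78, and the other 4 had levels of 4.79 to 6.02. The first lay at 103512475, 1891 bp inside the 5′ end.

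The entry of Chl1 that was kept apart spanned 286 bp, from 103649084 to 103649369, 138.6 kb from the 5′ end. Its summit had 4813 ChIP fragments over a control level of 3826, which is 800.4 times the common one and the second highest of the 35505 entries on the chromosomes. Among the same entries the fold of 1.26 was the lowest, while its −log10 q of 46.6 ranked 4 from the top. The sequence at this entry was not analysed here, and nothing further is read from its fragment numbers.

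**Figure D2:**
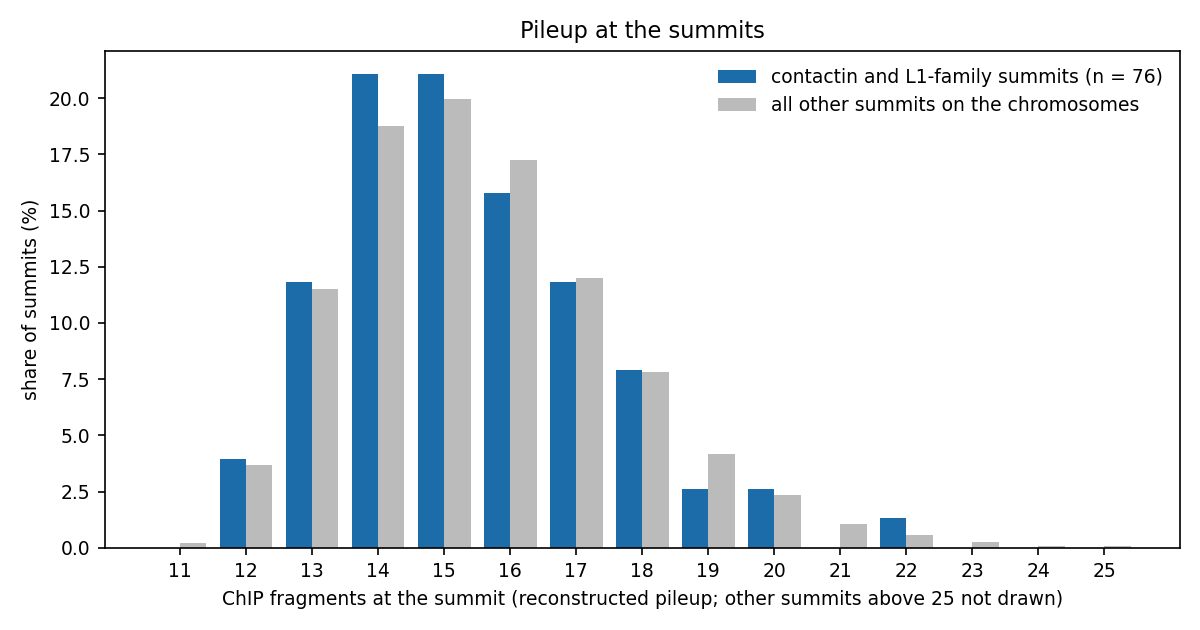
The x axis gives the ChIP fragments stacked at a summit, reconstructed from the deposited fold and p, and the y axis the share of summits in percent. Blue bars are the 76 summits of the 9 genes and grey bars the other summits on the chromosomes, those above 25 fragments not drawn. The 2 distributions share a median of 15 and quartiles of 14 and 17.

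In strength the 76 summits were like the rest of the list. Their median fold was 2.77 (quartiles 2.42 and 2.97), and that of the 35428 other summits on the chromosomes was 2.77 (quartiles 2.49 and 2.94). Both sets had a median of 15 fragments, as the plot of pileup shows. A q of 0.05 or less was found at 19 of 76 summits (25%, 95% Clopper-Pearson interval 15.8 to 36.3), against 23.4% of entries on the chromosomes. The common control level was present at 54 of 76 (71.1%, 59.5 to 80.9) and at 71.1% of the other summits. Another summit lay within 5 kb of 13 of the 76 (17.1%, 9.43 to 27.5), against 17.3% of the others. Of the 8 genes of 100 kb or more, 6 had a summit with q of 0.05 or less, and 53.9% of protein-coding genes of that length had one.

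Because long genes collect more summits, each count was read against gene length in a negative binomial regression over 20665 autosomal protein-coding genes. The fitted number grew with window length to the power 0.866. Of the 9 genes, 7 had more summits than the fit gave for their length, where 41.8% of all genes did and 42% of genes of 100 kb or more. With only entries of q 0.05 or less the number was 5 of 9, and with only entries of fold at or above the median it was 4 of 9. The share of all genes above the fit was not computed for these stricter lists, so those counts have no share beside them. The median ratio of observed to expected summits was 1.26 over the 9 genes, against 0.885 over genes of 100 kb or more and 0.677 over all genes fitted. Neither of the latter medians is matched to the 9 genes for length, and where few summits are expected the ratio takes only coarse values. Together the 9 genes held 76 summits with 61.4 expected, a ratio of 1.24. Without Nfasc the other 8 held 66 summits with 58.1 expected, a ratio of 1.14.

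In windows with the 10 kb flanks, Nfasc stood farthest above the fit. Its 10 summits compared with 3.32 expected, a ratio of 3.01 (counting interval 1.44 to 5.54), and the fitted 95% range for a gene of its length was 0 to 9. The unadjusted p was 0.0348 and the adjusted p was 1 in the negative binomial fit, two-sided, with Benjamini-Hochberg adjustment over the genes fitted. On the gene span alone, Nfasc had 8 summits with 2.95 expected, a ratio of 2.71 (unadjusted p 0.0642, negative binomial fit). Cntn2 was then higher, with a ratio of 2.75, and 0 of the 9 genes had an unadjusted p under 0.05. With the flanks, Cntn1 stood farthest below, with 2 summits and 4.93 expected, a ratio of 0.406 (0.0491 to 1.47). Cntn2 had a ratio of 1.85 (0.224 to 6.70), Cntn5 of 1.30 (0.815 to 1.97) and Nrcam of 1.27 (0.466 to 2.76). Chl1 had a ratio of 1.26 (0.408 to 2.94), Cntn3 of 1.25 (0.538 to 2.46), Cntn6 of 1.16 (0.468 to 2.40) and Cntn4 of 0.996 (0.544 to 1.67). Those intervals all include 1, so Nfasc alone had a counting interval above it.

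No gene of the 9 passed the adjusted threshold of 0.05, and neither did any of the 20665 genes (0%), for which the smallest adjusted p was 0.324. At an unadjusted p under 0.05 in the same negative binomial fit, Nfasc was the only one of the 9, while 1.86% of genes had more and 0.00968% fewer summits than expected. A Poisson fit, which allows no variation between genes beyond counting, called 0.0532% of genes higher and 0% lower. In it Nfasc had an unadjusted p of 0.00436 and an adjusted p of 0.743, and no other member an adjusted p below 1. Among entries with q of 0.05 or less, Nfasc had 1 summit with 0.781 expected, and Nrcam had 4 with 1.10 expected (unadjusted p 0.0834, adjusted p 1, negative binomial fit). Neighbouring genes can share summits, so the genes in the fit are not independent.

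**Figure D3:**
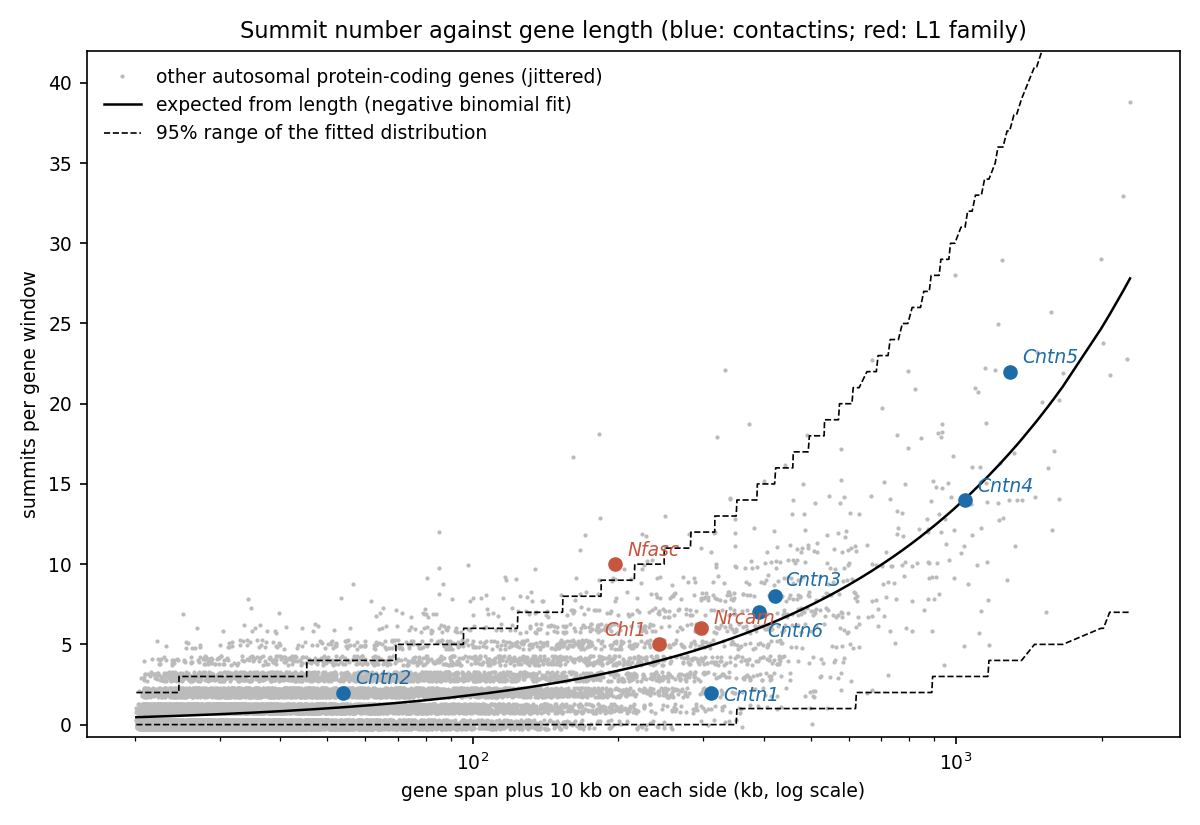
Each point is an autosomal protein-coding gene, with its span plus 10 kb on each side on a log x axis in kb and its summits on the y axis. The 9 genes are labelled, the solid line is the number expected from length and the dashed lines the 95% range of the fit. Nfasc lies above the upper line with 10 summits, and the other 8 lie between the lines. The lower line is at 0 for Cntn1, Cntn2, Chl1, Nrcam and Nfasc, so none of these could lie below it.

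Summit density also varies along the genome, so each gene was set beside the 500 kb on either side of its window, a comparison added after the values were seen. Nfasc had 5.07 summits per 100 kb against 2.20 in its surroundings, a ratio of 2.31 (exact interval 0.975 to 5.07). The surroundings of Nfasc and Cntn2 include each other. Cntn3 had 1.90 against 1.00, a ratio of 1.90 (0.651 to 5.34), and Cntn1 had 0.643 against 1.60, a ratio of 0.402 (0.0449 to 1.71). The ratios of the other 6 ran from 0.895 (Cntn4) to 1.49 (Cntn6). Each of the 9 intervals included 1, so no difference from the surroundings could be told apart from counting error. The intervals were wide, the widest that of Cntn2 (0.164 to 5.71), so they do not bound the differences closely.

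**Figure D4:**
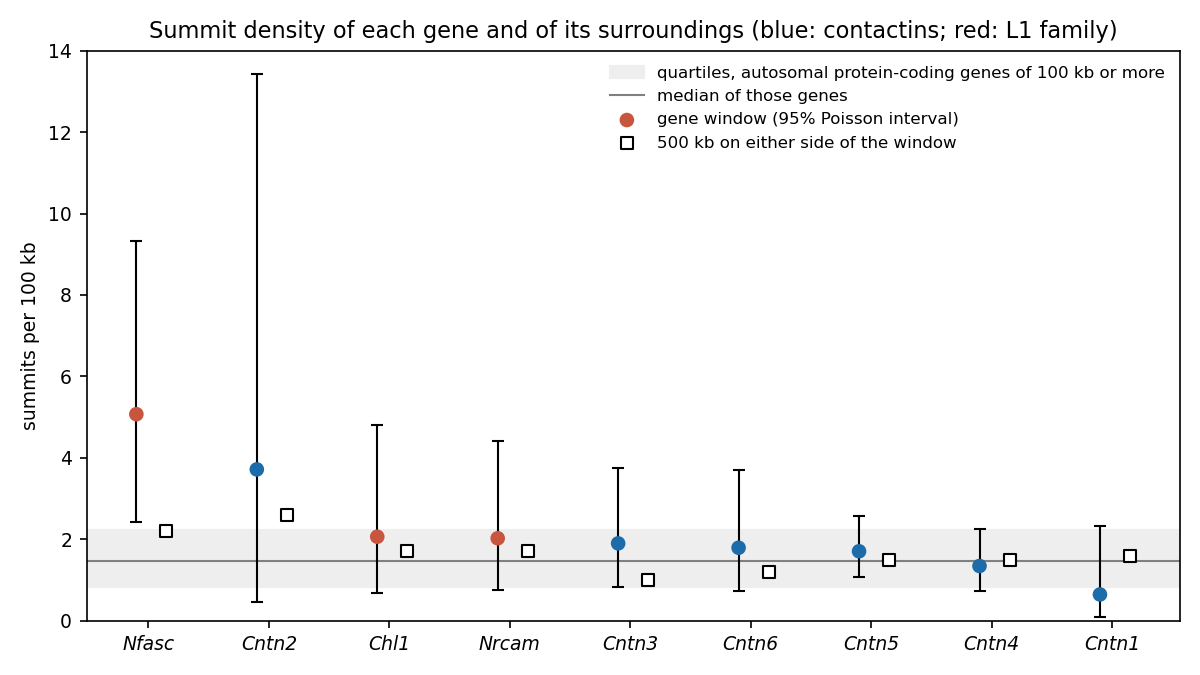
The y axis gives summits per 100 kb. Circles are the gene windows with 95% Poisson intervals, squares the 500 kb on either side, and the grey band and line the quartiles and median of autosomal protein-coding genes of 100 kb or more. Nfasc, at 5.07, is the only gene whose interval lies wholly above the band.

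A group of 4 genes, Cntn3, Chl1, Cntn6 and Cntn4, lies in this order within 4.54 Mb of chromosome 6. Their windows held 34 summits in 2097.0 kb, or 1.62 per 100 kb. The 3 stretches between them held 39 summits in 2459.8 kb, or 1.59 per 100 kb. The ratio was 1.02 (exact interval 0.626 to 1.66), which bounds a difference in this cluster at 1.66 times. The stretch from Cntn3 to Chl1 held 18 summits, that from Chl1 to Cntn6 10 and that from Cntn6 to Cntn4 11.

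Between the families, the 3 L1-family genes held 21 summits, or 2.85 per 100 kb (1.77 to 4.36), and the 6 contactin genes 55, or 1.57 per 100 kb (1.18 to 2.04). The gap narrowed when Nfasc was left out, but did not close. Without Nfasc, Chl1 and Nrcam had 11 summits, or 2.04 per 100 kb (1.02 to 3.65), an interval that covers the contactin value. Against the numbers expected from length, the L1-family genes had a ratio of 1.75, or 1.26 without Nfasc, and the contactin genes a ratio of 1.11. The difference between the families was not tested.

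Genes whose products bind or process these proteins were taken as a list of 33, among them L1cam, contactin-associated protein genes, receptor phosphatases, ankyrins, neuropilins and secretases. They held 144 summits, and 30 of the 33 had at least 1. The share with at least 1 was 53.4% among all protein-coding genes and 90.4% among those of 100 kb or more. Cntnap1, Ncan and Aplp2 had none. On the 32 autosomal partners 143 summits compared with 150.9 expected, a ratio of 0.948, with 14 genes above the fit and 18 below. Above the fit lay 41.8% of all genes and 42% of genes of 100 kb or more. The median ratio of the 32 partners was 0.939, beside 0.885 for genes of 100 kb or more and 0.677 for all genes, neither matched to them for length.

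Cntnap2, which encodes the partner of contactin-2, held the most of the list with 23 summits (27.5 expected). Cntnap5a held 13 (12.6 expected), Ank2, an ankyrin gene, 11 (8.70 expected), Cntnap5b 10 (10.4 expected) and Plxna4, a semaphorin receptor gene, 10 (6.97 expected). No partner passed the adjusted threshold in the negative binomial fit. Plxna1, named for this value after it was seen, was the only one with an unadjusted p under 0.05, with 5 summits, 1.29 expected and p 0.044. Among partners with a summit, Cntnap5c had the lowest ratio, 0.209, with 2 summits and 9.57 expected (unadjusted p 0.103, negative binomial fit). In the Poisson fit the unadjusted p was 0.00884 for Cntnap5c (adjusted p 0.891) and 0.0208 for Plxna1. L1cam, the founding member of the L1 family, lies on chromosome X, outside the fit, and had 1 summit in the gene or within 10 kb of it.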

How the data were processed

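The data analysed were 1 peak list in narrowPeak layout without a header, pooled by the authors over libraries. Per the submitters' processing notes, FastQC, Trimmomatic, BWA, SAMtools and MACS2 were used with builds mm10 and GRCm38.p6, with no versions. The sources used here do not state the caller settings or how duplicates were handled. Column order identifies the deposited fold, a linear ratio of pileup over control, and the −log10 p and −log10 q as the authors' values. The deposited display score was not used. Summit positions were made 1-based. Genes are those of RefSeq GRCm38.p6, and strands came from its promoter table. A genome sequence and exon annotation were not used here, so exon and intron classes and peak sequences are not reported.

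Pileup and control were reconstructed from fold and p with the 1 that MACS2 adds to each, within 0.002 of −log10 p (35536 entries unique, the other 3 solved separately). Entries off the chromosomes (34) were left out. Summits per gene window were regressed on log window length (negative binomial, statsmodels 0.14.6, two-sided p, Benjamini-Hochberg), after tests on simulated data. Poisson intervals, Clopper-Pearson intervals and exact ratio intervals used scipy 1.17.1.

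Both ChIP and input libraries had received etoposide, and the pooled list allows no comparison between libraries. Members, lists and tests were chosen with earlier results of these data known. The rule for named genes took all 9 members, partners past the adjusted threshold (none passed) and the 5 partners with most summits. L1cam, Plxna1, Cntnap5c and the partners without a summit were named outside it, after their values were seen. Alternatives covered the flank, stricter lists, merged entries, control level and the form of the fit.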

Additional observations from a re-analysis of the deposited data

How the results depend on the processing

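No paired analysis was possible because the list is pooled and has no column per library, and for the same reason no library could be left out. The count of genes past the adjusted threshold stayed at 0 under the 11 settings of the fit (8 genes with only genes of 100 kb or more, where Cntn2 was not fitted, and 9 otherwise), with a smallest adjusted p of 0.743 (Nfasc, Poisson fit). The total of 76 summits became 19 with only entries of q 0.05 or less and 38 with only entries of fold at or above the median. The share of summits with q of 0.05 or less, 25%, became 38.2% with a q limit of 0.1. Genes with a summit near an end numbered 0 within 1 kb and 4 within 5 kb. The median fold moved by less than its counting interval.

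Of 98 gene ratios recomputed, 13 crossed 1. The ratio of Cntn4, 0.996 as reported, was 1.00 on the span alone and with merged entries, 1.27 with q of 0.05 or less, 1.01 with Poisson, 1.08 with chromosome as a term, 1.00 with a cubic in length and 1.04 among genes of 100 kb or more. With q of 0.05 or less, the ratio was 0 for Cntn2 and Chl1 and 0.721 for Cntn6. With fold at or above the median, it was 0.895 for Cntn3, 0.954 for Cntn6 and 0.477 for Chl1. Nfasc ran from 1.28 (q of 0.05 or less) to 3.37 and Nrcam from 1.27 to 3.64. These smaller lists leave few summits per gene. Pileups of 12 to 22 fragments limit how finely folds can be ranked.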
